A study of Mus musculus with 14 samples.

Results

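A group of 9 smooth muscle and pericyte-type genes, which encode contractile and surface proteins of mural cells, was followed through all assays of control and Lin28a+ muscle stem cells: Acta2, Tagln, Cnn1, Cnn2, Myl9, Mcam, Pdgfrb, Rgs5 and Cspg4. They were matched by symbol and were selected on measured values as well as on their names, since the choice refers to a rise of Mcam and a fall of Tagln in these libraries. Of the 9 genes, 8 were among the 14837 genes of the input RNA, 4 had at least 1 row in the m6A-RIP (9416 genes), and 1 had a peak in the Igf2bp3-RIP (4527 genes) and in the Lin28a-RIP (3493 genes). Cspg4, which encodes the NG2 proteoglycan of pericytes, had no row in any of these assays.

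Muscle stem cells (MuSCs) are the resident myogenic progenitors of skeletal muscle. Lin28a+ MuSCs were sorted from the skeletal muscle of Lin28a-CreERT2; LSL-tdTomato mice, in which a tamoxifen-activated Cre driven by Lin28a labels cells with a red fluorescent protein, and were compared with control MuSCs. The sort therefore marks cells in which the Lin28a driver was active. All cells were mouse cells grown on Matrigel in medium with serum, without further treatment. Age, sex and strain of the animals and the number of animals behind a library are not given in the sources used here. Each group had 2 input, 2 m6A-RIP and 2 Igf2bp3-RIP libraries, and Lin28a+ MuSCs also had 2 Lin28a-RIP libraries, 14 libraries in all. In RIP-seq, RNA is pulled down with an antibody against a protein or a base modification and then sequenced. The 2 libraries of a group may be technical replicates, so that standard errors then measure only the spread between these libraries.

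Smooth muscle cells and pericytes, together the mural cells of blood vessels, share an actin-based contractile apparatus. Serum response factor (SRF) and its cofactors of the myocardin family switch on many of its genes through a promoter element called the CArG box, and the cofactors respond to the state of the actin cytoskeleton. Several of these genes are not exclusive to vessels: Acta2 and Tagln are also made by myofibroblasts and by myogenic cells, and Mcam, Pdgfrb, Rgs5 and Cspg4 are widely used to recognise pericytes.

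Promoter stretches are shown for the genes in which the 250 bases before the RefSeq start hold a CArG box or a related element. Promoters were read for 7 of the 9 genes, Acta2, Cnn1, Cnn2, Myl9, Mcam, Rgs5 and Cspg4, from the RefSeq table of GRCm38.p6. Capitals mark the element, and each line gives 10 bases on either side of it in the direction of transcription.
Cnn2, CArG box, chr10:79988534-79988563, + strand: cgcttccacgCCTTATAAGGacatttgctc
Myl9, CArG box, chr2:156775293-156775322, + strand: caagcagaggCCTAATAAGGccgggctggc
Myl9, CArG-like run, chr2:156775355-156775384, + strand: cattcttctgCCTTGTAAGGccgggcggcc
Acta2, upstream CArG-like run, chr19:34255438-34255467, - strand: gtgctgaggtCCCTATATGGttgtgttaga
Acta2, downstream CArG-like run, chr19:34255388-34255417, - strand: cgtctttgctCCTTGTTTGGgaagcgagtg
Mcam, TGACGTCA, chr9:44134619-44134646, + strand: cccgccccccTGACGTCAgcccccgaca

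A CArG box was present in 2 of the 7 promoters, those of Cnn2 and Myl9, and starts 56 and 161 bases before the start that the promoter table uses. For Acta2 and Myl9 that start lies inside the annotated extent of the gene, so distances for them are not from its outermost start. Over all 32851 promoters, 1.47% held one in the same window. Allowing 1 of the 6 core bases to be other than A or T, the element was present in 3 of 7 promoters and in 8.59% of all promoters. The CArG-like runs of Acta2 start 84 and 34 bases before the start used, and that of Myl9 starts 99 bases before it. The Mcam promoter held no such run. It holds TGACGTCA, the letters of the cyclic AMP response element, from 29 bases before the start, and these letters, chosen for the search after they had been seen there, occur in 1.55% of all promoters. Both elements read the same on both strands as searched, and none of the runs shown overlaps another. A match is a description of letters and not of a bound site, and Cnn2, Myl9 and Acta2 did not share a direction in the input RNA, as the values that follow show.

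The deposited input values summed to between 4842915 and 6220960 per library, the m6A-RIP counts to between 21350962 and 31830638, the Igf2bp3-RIP counts to between 9215355 and 34142094, and the Lin28a-RIP counts to 36610494 and 33908110. Levels are given in CPM, the count scaled to a library total of 1000000, which are not divided by gene length, so that they compare libraries and not genes. At the depth of the input, 3 counts correspond to between 0.482 and 0.619 CPM. Of 12 myogenic markers, 10 were listed in the input, and Calcr and Chrdl2 were not. Myod1 was between 4542 and 4775 CPM, Pax7 between 139 and 194 CPM and Myog between 748 and 2837 CPM in the 4 input libraries. Vcam1 was between 4.00 and 18.3 CPM and Megf10 between 87.3 and 400 CPM. The defining smooth muscle gene Myh11 did not exceed 0.5 estimated counts in any library.

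Among the contractile genes, the input RNA of Tagln and Myl9 was lower in Lin28a+ MuSCs, that of Acta2 and Cnn2 was higher, and Cnn1 was close to the limit of counting. Among the surface and signalling genes of pericytes, Mcam and Pdgfrb were higher and Rgs5 was lower. The differences thus ran in both directions within each of these roles. The input RNA is that of whole cultures, so fewer cells that express a gene and less RNA of it per cell cannot be told apart.

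Tagln encodes transgelin (SM22), an actin-binding protein of the calponin family and a classical early marker of smooth muscle. Its input level was 278 and 293 CPM in the control libraries and 77.8 and 76.1 CPM in the Lin28a+ libraries. The groups did not overlap, and both Lin28a+ libraries were far below both controls. How many of all genes have groups that do not overlap was not counted, here or for the genes and assays below. The log2 fold change between Lin28a+ and control MuSCs was -1.92 with a standard error (SE) of 0.034 in the edgeR fit, a level 3.79-fold lower.

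Myl9, the regulatory light chain whose phosphorylation starts smooth muscle contraction, was at 157 and 157 CPM in control and at 98.0 and 94.2 CPM in Lin28a+ MuSCs. The groups did not overlap, and the log2 fold change was -0.74 (SE 0.034).

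Acta2 encodes the α-actin of smooth muscle, and its level was 5311 and 5396 CPM in control against 7484 and 7495 CPM in Lin28a+ MuSCs. The difference was thus opposite in sign to that of Tagln and smaller, with a log2 fold change of 0.46 (SE 0.019), a level 1.37-fold higher. Acta2 took 0.535% of all input counts in control and 0.749% in Lin28a+ MuSCs.

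The value of Acta2 has to be read beside those of the other actins, whose coding sequences are nearly identical, because how reads shared between them were counted is not given in the sources used here. These genes were set beside Acta2 after its value had been seen, and Actg2 is also in lists of smooth muscle genes read below. Actc1, the cardiac α-actin that is also made in developing skeletal muscle, was at 82.1 and 79.5 CPM in control and at 1118 and 1100 CPM in Lin28a+ MuSCs. Acta1, the α-actin of skeletal muscle, went the other way, from 3727 and 3820 CPM to 1847 and 1831 CPM. Actg2, the γ-actin of enteric smooth muscle, was between 2.21 and 3.23 CPM in the 4 libraries. In the edgeR quasi-likelihood test over all genes, Actc1 rose with a log2 fold change of 3.75 (SE 0.034, adjusted p = 1.26e-06) and Acta1 fell with one of -1.07 (SE 0.021, adjusted p = 4.83e-06), while Actg2 had one of -0.31 (SE 0.24, adjusted p = 0.514). The share of the Acta2 counts that these genes could have contributed was not tested.

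Cnn2, the calponin that is found in many cell types besides smooth muscle, was at 314 and 319 CPM in control and at 360 and 370 CPM in Lin28a+ MuSCs. The groups did not overlap, but the difference was the smallest among the genes tested, with a log2 fold change of 0.18 (SE 0.025), a level 1.13-fold higher. Cnn1, the calponin that marks differentiated smooth muscle, had 0.8 and 2.8 estimated counts in control and 4.8 and 4.8 in Lin28a+ MuSCs. It did not pass the filter on low counts and was not tested. With counts rounded and summed, 10 against 4, the ratio of Lin28a+ to control was 2.95 with an exact 95% interval from 0.851 to 12.9, which includes no difference and, like the other intervals here, covers counting error only.

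Mcam encodes CD146, an adhesion molecule of the immunoglobulin superfamily on pericytes, smooth muscle and endothelium. Its input level was 6.53 and 5.87 CPM in control against 56.8 and 56.5 CPM in Lin28a+ MuSCs, from 35.7 and 36.5 estimated counts against 287 and 274. Each Lin28a+ library was far above each control library. The log2 fold change was 3.17 (SE 0.072), a level 8.99-fold higher and the largest rise among the genes followed here.

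Pdgfrb, the receptor through which PDGF-B recruits pericytes to vessels, was at 1.74 and 1.69 CPM in control and at 3.86 and 4.44 CPM in Lin28a+ MuSCs, from 9.5 and 10.5 against 19.5 and 21.5 estimated counts. The log2 fold change was 1.27 (SE 0.19), and the ratio of summed counts was 2.48 with an exact 95% interval from 1.423 to 4.46. Both control libraries were below the 1.90 CPM that the filter on low counts asks for, so Pdgfrb entered the test through the Lin28a+ libraries alone. Rgs5, a regulator of G protein signalling and a common transcript of brain and muscle pericytes, entered it through the control libraries alone. It had 13 estimated counts in each control library and 1 in each Lin28a+ library, or 2.38 and 2.09 against 0.198 and 0.206 CPM. The fitted log2 fold change was -3.35 (SE 0.41), and with so few counts the ratio of control to Lin28a+ of 11.01 had an exact 95% interval from 2.76 to 95.7. Cspg4 had no row in the input.

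Of the 7 genes that passed the filter, all 7 lay past an adjusted p of 0.05, 4 higher and 3 lower, where the background over the 11317 genes tested was 56.8% (28.1% higher and 28.7% lower). Because the choice of genes used this contrast, nothing is read from the count, and because Pdgfrb and Rgs5 passed the filter through the group in which they were high, they were bound to differ. With DESeq2 in place of edgeR, 4 of the 7 were past the threshold, and Cnn2, Pdgfrb and Rgs5 were not.

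**Figure D1:**
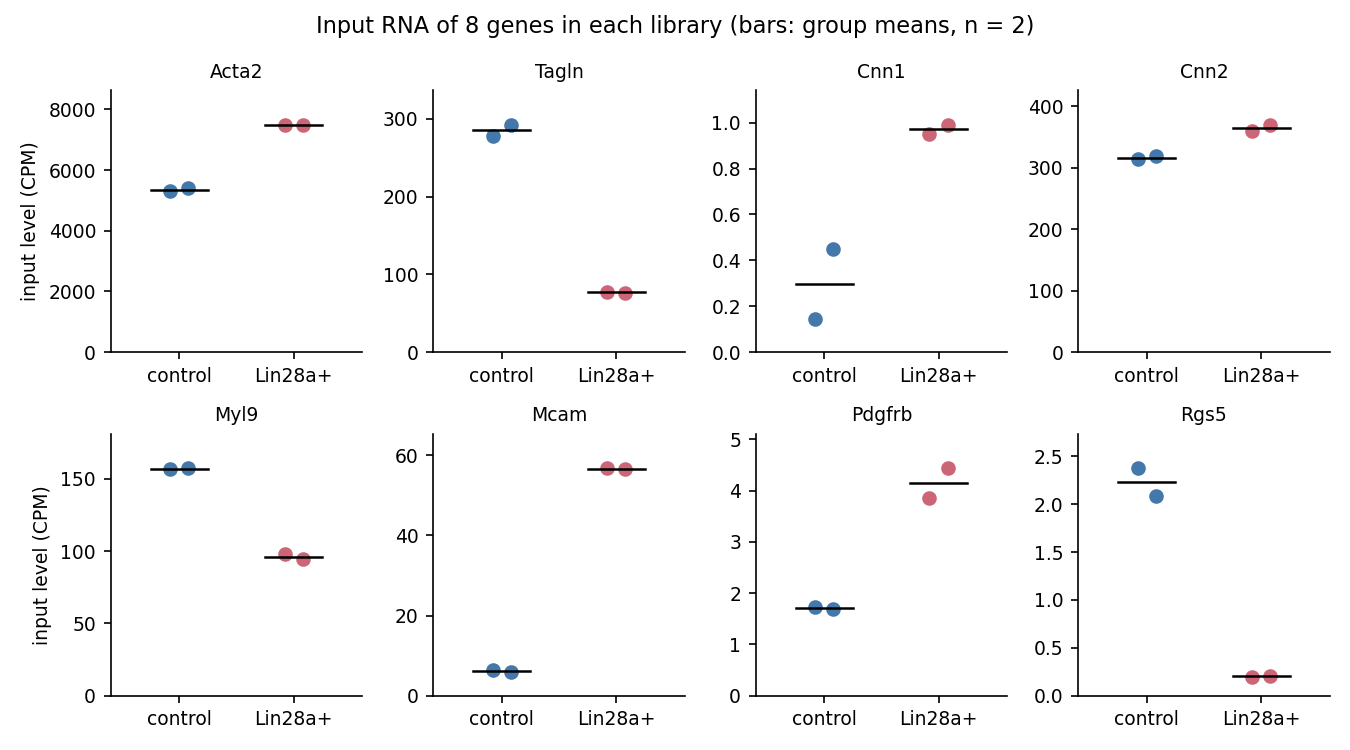
Input level in CPM of the 8 genes with a row in the input, with 1 point for each library, control in blue and Lin28a+ in red, and a black bar for the mean of the 2 libraries; each vertical axis starts at 0 and has its own scale. Tagln, Myl9 and Rgs5 lie lower in both Lin28a+ libraries, and Acta2, Cnn2, Mcam, Pdgfrb and the sparsely counted Cnn1 lie higher.

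Marker lists of other cell types were read beside these values. Of 14 further pericyte markers, 10 were listed in the input, their summed level was 212 and 219 CPM in control against 291 and 302 CPM in Lin28a+ MuSCs, and Kcnj8, Higd1b, Vtn and Zic1 were not listed. Of 7 further smooth muscle markers, 5 were listed, with sums of 37.6 and 44.5 CPM against 44.0 and 45.3 CPM, Myh11 near 0, and Itga8 and Kcnmb1 not listed. The 5 listed of 10 endothelial markers summed to between 1.07 and 1.85 CPM in the 4 libraries, with at most 5.21 estimated counts for any gene in any library, and Cdh5, Kdr and Tek were not listed. The 6 listed of 8 macrophage markers summed to between 3.52 and 5.85 CPM, and the 2 listed of 5 glial markers to between 0.362 and 0.844 CPM. The 7 listed of 10 fibro-adipogenic progenitor markers summed to 123 and 128 CPM in control and to 134 and 133 CPM in Lin28a+ MuSCs. The highest value of any of them in any library was 748 estimated counts, while 3 of them were under 3 counts in every library. Dcn, Lum and Dpt were not listed, and the defining Pdgfra did not exceed 1.46 estimated counts. The 10 listed of 12 myogenic markers summed to 9641 and 10071 CPM in control and to 11811 and 11983 CPM in Lin28a+ MuSCs, and Myog, which drives terminal myogenic differentiation, moved from 748 and 774 CPM to 2785 and 2837 CPM. The part of any of these cells, or of the state of differentiation, in the values of the 9 genes was not tested.

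The m6A-RIP enriches RNA fragments that carry N6-methyladenosine, the most common internal modification of mRNA. Acta2 had 2 rows in it, Myl9 had 3, and Tagln and Cnn1 had 1 each, 7 rows in all, while Cnn2, Mcam, Pdgfrb, Rgs5 and Cspg4 had none. Rows are peaks of a named transcript without positions, and the rows of Acta2 belong to different transcripts of the gene, so they can share reads. Among the genes tested in the input, 65.6% had at least 1 m6A-RIP row. Of the 2526 genes with a mean input level in Lin28a+ MuSCs at or above that of Mcam, 77.1% had one, and Mcam was among those without.

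Tagln had 80.2 and 76.0 CPM in its m6A-RIP row in control against 21.2 and 22.0 CPM in Lin28a+ MuSCs. The groups did not overlap and the log2 fold change per gene was -1.75 (SE 0.070), beside -1.92 in the input. The rows of Myl9 summed to 376 and 382 CPM in control and to 208 and 210 CPM in Lin28a+ MuSCs, with a log2 fold change of -0.76 (SE 0.040). Each of its rows was lower in both Lin28a+ libraries, by log2 fold changes of -0.96 (SE 0.085), -0.93 (SE 0.058) and -0.59 (SE 0.048), the last being the row with the most counts.

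The rows of Acta2 summed to 620 and 628 CPM in control and to 933 and 896 CPM in Lin28a+ MuSCs, with a log2 fold change of 0.65 (SE 0.037). Its rows gave 0.67 (SE 0.043) and 0.75 (SE 0.046), so they differed by little more than their errors. The fits by gene and by row each used their own scaling factors (TMM), which the CPM do not include. With libraries scaled by total counts alone, the log2 fold change was 0.55 summed, and 0.52 and 0.59 by row. Cnn1 had 562 and 74 counts in the control libraries and 148 and 136 in the Lin28a+ libraries, or 17.7 and 3.47 against 6.23 and 4.36 CPM. Its control libraries thus lie on either side of both Lin28a+ libraries, and the log2 fold change of -0.95 (SE 0.49) rests on control library 1. Without that library it was 0.70, and without control library 2 it was -1.65.

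**Figure D2:**
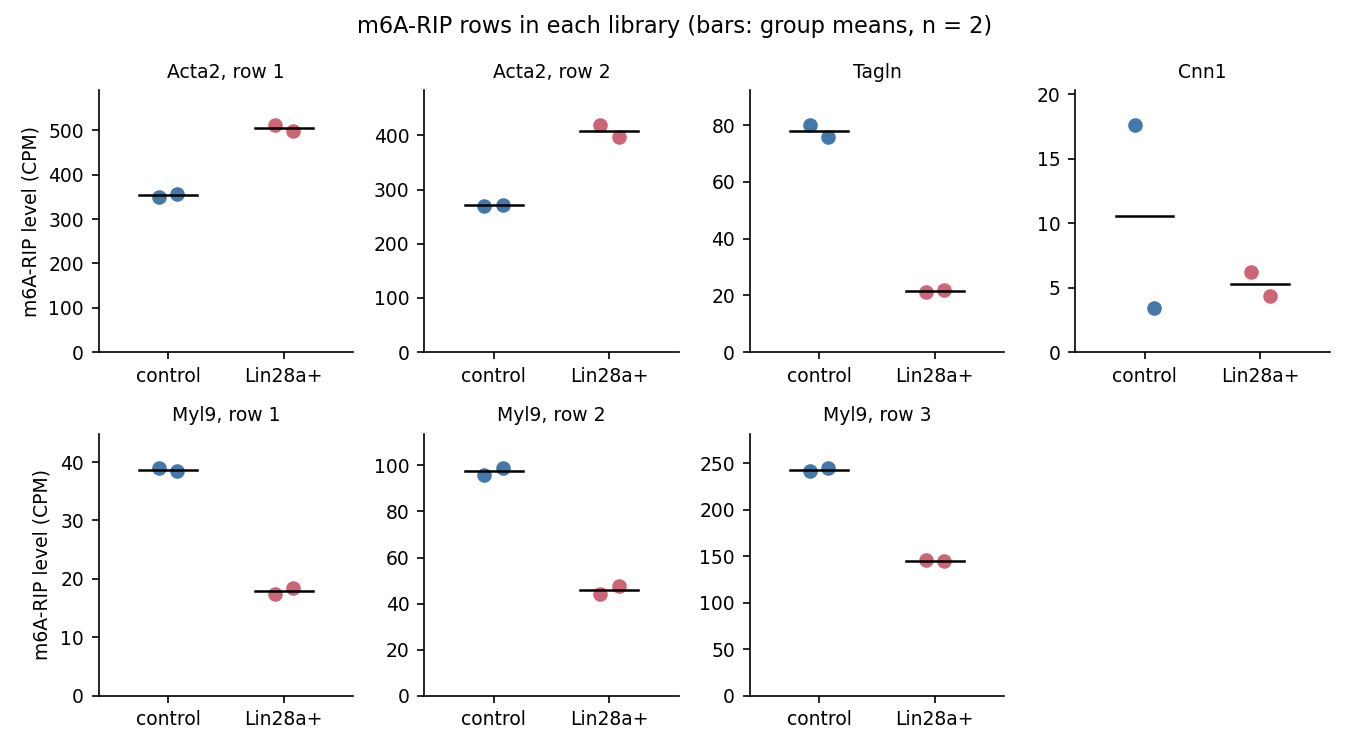
Level in CPM of the 7 m6A-RIP rows of Acta2, Tagln, Cnn1 and Myl9, with 1 point for each library, control in blue and Lin28a+ in red, and a black bar for the mean of the 2 libraries; each vertical axis starts at 0. The control libraries of Cnn1 lie at 17.7 and 3.47 CPM, on either side of its Lin28a+ libraries.

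By gene, 3 of the 4 genes, and by row, 6 of the 7 rows lay past an adjusted p of 0.05, with Cnn1 the exception, where the background was 66.3% of 9416 genes and 61.8% of 18881 rows. As in the input, the contrast served in the choice of genes and nothing is read from these counts.

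Since the pulldown also follows the amount of RNA, the change in m6A-RIP was set against that in the input within 1 model. Relative to input, the log2 difference was 0.15 (SE 0.067) for Tagln, -0.04 (SE 0.053) for Myl9 and 0.18 (SE 0.040) for Acta2. For Tagln and Myl9 these values are small beside the changes of the same genes in either assay, whereas that of Acta2 stands beside 0.46 in the input and 0.65 in the m6A-RIP. For Cnn1 it was -2.51 with an SE of 2.68, which no direction can be read from. Acta2 was the only 1 of these 4 genes past an adjusted p of 0.05, where the background was 7.14% of 7943 genes. This difference is built from the same contrasts that served in the choice of genes, and nothing is read from the count. Acta2 was no longer past it in 5 of 8 fits with 1 library left out, those without either control input library, either Lin28a+ input library or control m6A-RIP library 1, in which the difference stayed between 0.18 and 0.19.

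**Figure D3:**
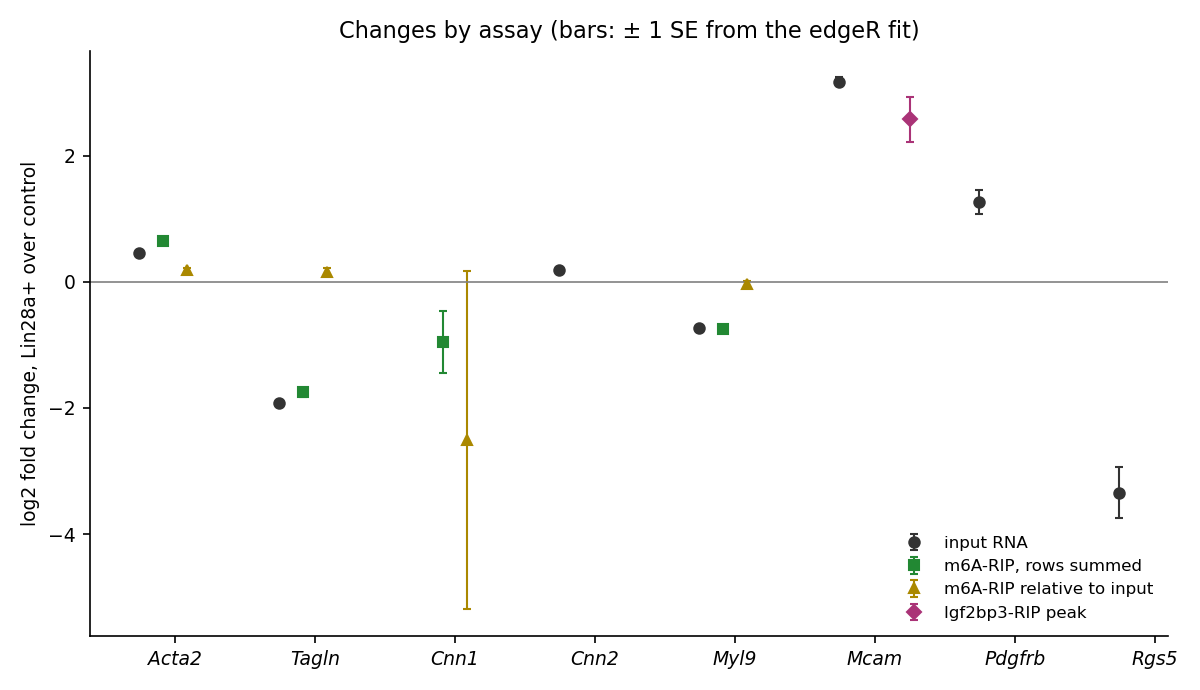
Log2 fold change of Lin28a+ over control for each gene in the input RNA (circles), the m6A-RIP with rows summed (squares), the m6A-RIP relative to input (triangles) and the Igf2bp3-RIP peak (diamond), with bars of 1 SE from the edgeR fit. Tagln and Myl9 lie below 0 and Acta2 above 0 in both RNA and m6A-RIP, the values relative to input lie between -0.04 and 0.18 for these 3 genes, and Mcam lies highest at 3.17 in RNA and 2.58 in Igf2bp3-RIP.

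The genes nearest to Tagln in the plane of its input and m6A-RIP log2 fold changes, over 7415 genes with both, were Akip1 (-1.93 and -1.75, at a distance of 0.013), Rgs2 (-1.89 and -1.73, 0.033) and Kif26b (-1.87 and -1.72, 0.056). Mcam had no m6A-RIP row and could not be placed in this plane.

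Lin28a, an RNA-binding protein best known for blocking the maturation of let-7 microRNAs, and Igf2bp3, an RNA-binding protein counted among the readers of m6A, were each pulled down with the RNA bound to them. Mcam was the only 1 of the 9 genes with a peak in either pulldown. Among the genes tested in the input, 25.4% had a Lin28a-RIP peak and 32.9% an Igf2bp3-RIP peak. Of the 12 genes with a mean input level in Lin28a+ MuSCs at or above that of Acta2, none had a peak in either pulldown.

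RefSeq places Mcam at chr9:44134658-44142727 on GRCm38.p6 (mm10). Of the 8 Lin28a-RIP peaks annotated to Mcam, 6 overlap it, and the other 2 lie beyond its end, in the neighbouring gene Cbl at chr9:44142976-44234259. Cbl, a ubiquitin ligase gene with 11 Lin28a-RIP and 11 Igf2bp3-RIP peaks of its own, starts after a gap of 248 bp, and reads beyond the end of Mcam cannot be told apart between both genes without strand, which the peaks do not give.

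The 6 peaks that overlap Mcam held 6137 and 5517 counts in the Lin28a-RIP libraries, or 168 and 163 CPM. The peak nearest the end of the gene, chr9:44141661-44142416, was the widest of the 6 and held the most, with 1989 and 1742 counts. Per kb of peak, the 6 lay between 48.2 and 102 CPM, and the highest was the peak at chr9:44138749-44138958, with 91.4 and 102 CPM per kb. The peaks beyond the end of Mcam were lower, between 33.5 and 36.9 CPM per kb. Over all genes with a Lin28a-RIP peak the median was 3 peaks, and 34.9% had at least 6. No pulldown of Lin28a from control MuSCs was analysed here, so these values have no control to be set against.

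In the Igf2bp3-RIP, the Mcam peak at chr9:44141711-44141910 had 32 and 61 counts in control and 227 and 534 in Lin28a+ MuSCs, or 3.47 and 2.21 against 17.99 and 15.6 CPM. The groups did not overlap, and each Lin28a+ library was above each control library. The log2 fold change was 2.58 (SE 0.36), a level 5.97-fold higher. Mcam was chosen for a rise, without an assay being named, and the pulldown can follow the amount of RNA, so these values are a description as well and are given without a p-value. In the edgeR fit over all 19465 peaks the peak was not past an adjusted p of 0.05, where the background was 0.123% of peaks, 24 in all. The fit with the peaks of a gene summed used the same counts for Mcam, which has 1 peak. In that fit its log2 fold change was 2.57 (SE 0.33), and it was not past an adjusted p of 0.05 either. The background there was 0.287% of 4527 genes.

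Whether Mcam lay past the threshold differed between models, and nothing is read from it. With the replicate block, in which libraries of the same number are paired, the log2 fold change of the peak was 2.59 (SE 0.28) and it was past the threshold, with 1988 peaks called in place of 24. With DESeq2 it was 2.59 and past the threshold, with 263 peaks called. The peak was also past it in 3 of the 4 edgeR fits with 1 library left out, and the summed gene in all 4. The direction was the same in all 9 alternatives in which Mcam was fitted, between 2.26 and 2.90.

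The rise in the Igf2bp3-RIP stands beside that of the input RNA of Mcam, and on the log2 scale it was smaller by 0.59. This difference between assays was not tested. The 11 Igf2bp3-RIP peaks of the neighbouring Cbl had log2 fold changes between -0.22 and 0.32 in the edgeR fit without the replicate block. The Igf2bp3-RIP peak lies inside the Lin28a-RIP peak nearest the end of Mcam and covers 26.5% of its length, 200 bases.

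**Figure D4:**
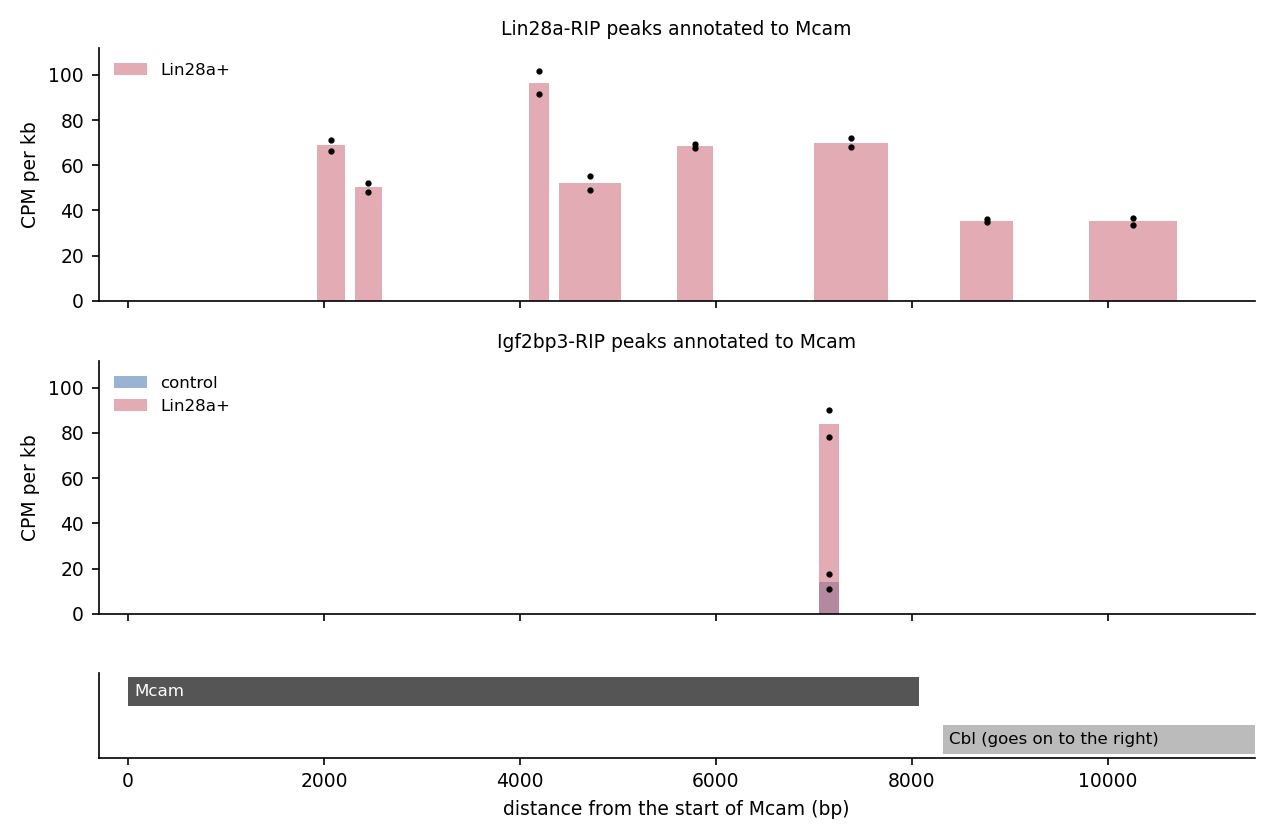
Peaks annotated to Mcam by distance in bp from the start of the gene, with the mean level in CPM per kb of peak as bars (control in blue, Lin28a+ in red), 1 black point for each library, and the extents of Mcam and Cbl below. The Igf2bp3-RIP peak lies inside the Lin28a-RIP peak that ends 311 bp before the end of Mcam, and 2 of the 8 Lin28a-RIP peaks lie beyond it, over Cbl.

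Lists of related genes were read for whether the contractile genes around these members moved in 1 direction in the input RNA. Of 26 further smooth muscle contractile and actin-binding genes, 23 were tested, 9 rose and 9 fell, with a median log2 fold change of -0.06 beside 0.01 over all genes tested. This and the list counts that follow stand against a background of 28.1% of all genes tested higher and 28.7% lower, and most of the lists hold few tested genes. Csrp2, a LIM protein of smooth muscle, rose by a log2 fold change of 1.05 (SE 0.071) and Tagln2, a close relative of Tagln, by 0.96 (SE 0.042), whereas Ldb3 (-1.01, SE 0.046), a Z-disc protein, and Lpp (-0.92, SE 0.038), a focal adhesion protein, fell. The calponin relative Cnn3 is also in this list and is counted above. It was picked out after the values of the members had been seen and had 0.19 (SE 0.023), close to Cnn2. Each of these was past an adjusted p of 0.05 in the edgeR test over all genes.

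Of 6 PDGF ligands and receptors besides Pdgfrb, 4 were tested, 1 rose and 3 fell. Pdgfc rose with a log2 fold change of 0.66 (SE 0.041), and Pdgfd (-0.77, SE 0.19) and Pdgfa (-0.54, SE 0.077) fell. The ligand Pdgfb was not listed. Of 10 small RGS genes related to Rgs5, 7 were tested, 1 rose and 4 fell, Rgs4 among them. Rgs16 rose by 0.74 (SE 0.037), while Rgs4 (-3.66, SE 0.34) and Rgs17 (-1.999, SE 0.20) fell, and Rgs4, at 0.395 and 0.275 CPM, was under 3 counts in both Lin28a+ libraries. Like Rgs5, Rgs4 passed the filter through the control libraries alone and was bound to differ, so the count of falls in this list supports nothing about it.

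Of the 14 further pericyte markers only 4 passed the filter, of which 2 rose and 1 fell. Heyl, a transcriptional target of Notch, rose from 2.38 and 3.91 CPM to 47.9 and 55.3 CPM, with a log2 fold change of 3.99 (SE 0.17), and the receptor Notch3 rose by 0.41 (SE 0.032). Tbx18, a transcription factor of mural cells, fell with a log2 fold change of -0.84 (SE 0.053). Of the 7 smooth muscle markers 3 were tested, Smtn rose by 0.90 (SE 0.075) and Lmod1 fell with one of -0.51 (SE 0.14). All of these markers but Myocd are also in the contractile list, so the tested ones were already counted there. Among the 10 myogenic markers tested, 3 rose and 5 fell, with Myog (1.86, SE 0.022) and Cdh15 (0.77, SE 0.032) the largest rises and Megf10 (-2.21, SE 0.029) and Vcam1 (-1.93, SE 0.13) the largest falls. Of the fibro-adipogenic progenitor markers Ly6a rose by 1.61 (SE 0.11), and no other of the 3 tested passed the threshold.

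**Figure D5:**
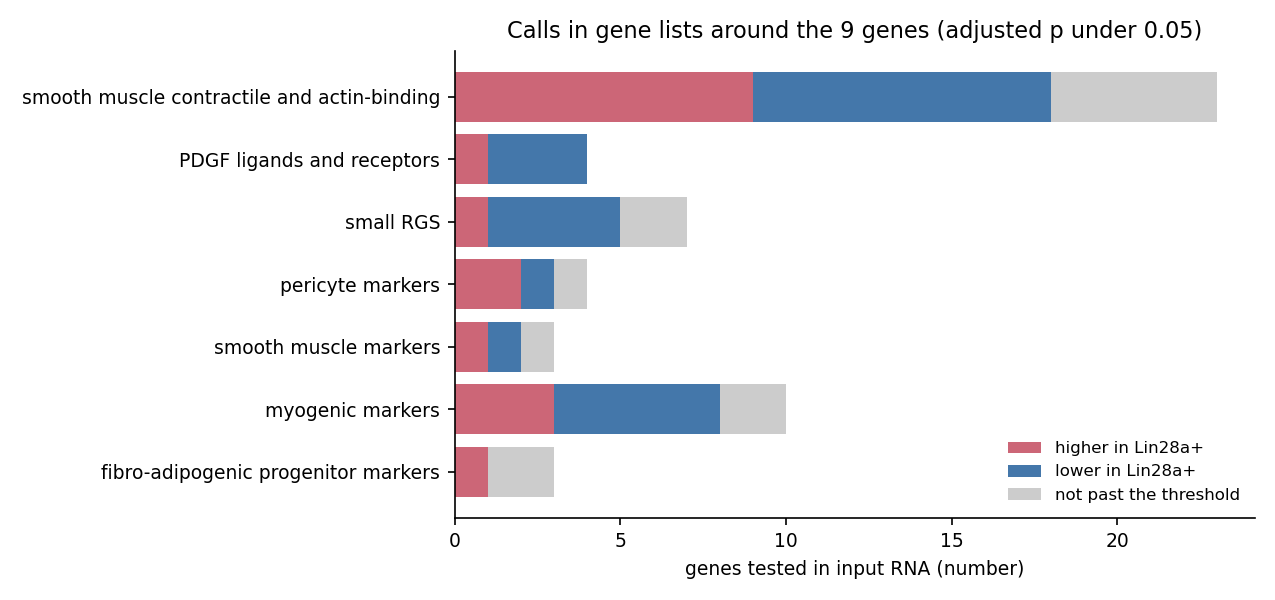
Number of genes tested in the input RNA in each list shown with at least 3 tested genes, split into those higher in Lin28a+ MuSCs (red), lower (blue) and not past an adjusted p of 0.05 (grey). The contractile list has 9 genes in each direction, and the small RGS list has 4 lower and 1 higher. Lists share genes: all smooth muscle markers but Myocd are also in the contractile list.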

How the data were processed

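The 14 libraries came from control and Lin28a+ MuSCs. Per the submitters' processing notes, reads were checked with FastQC, aligned with HISAT2 2.0.4 and analysed with DESeq2 1.42.0 and MACS2 (1.4.3 as written). The notes list GRCh38, a human assembly, and mm10, whereas the identifiers are those of mouse. The counter, the strand setting and the pooling of replicates for peak calling are not given in the sources used here. The values that the authors deposited are unscaled counts of each peak for the RIP libraries and estimated counts of each gene for the input, which were rounded for the tests. Columns were assigned by name, and the Lin28a+ columns of the input and m6A-RIP, whose names do not tell their libraries apart, only to their group.

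Tests used edgeR 4.0.16 in R 4.3.3 (quasi-likelihood test, TMM factors, filterByExpr, Benjamini-Hochberg adjustment over all features, threshold 0.05), with limma 3.58.1 and DESeq2 1.42.0 as an alternative. The SE is the log2 fold change divided by the square root of F. The m6A-RIP relative to input was the interaction of cells and assay in a joint model. Intervals of ratios are exact conditional 95% intervals. The scripts were tested on simulated data, where most 4-fold and 8-fold changes were recovered in every comparison, but in Igf2bp3-RIP without the replicate block most 2-fold changes were missed, and nearly all of those of single peaks. Changes were simulated only in features above a minimum expected count, which Pdgfrb and Rgs5 do not reach. The simulated noise had a common spread for all features and no shift shared by replicates, so recovery in the measured data can differ.

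The 9 genes and the gene lists were chosen with earlier results of these data known. Changes of the 9 genes are descriptions without a p-value in every assay. The text names the 9 genes, the 2 largest rises and the 2 largest falls past the threshold of each list, and the 3 genes nearest to Tagln. Other genes were looked up after values had been seen. The alternatives included DESeq2, median-of-ratios factors, scaling by totals, other filters on low counts, the replicate block and each library left out in turn. Results of 1 gene list are not reported here.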

Additional observations from a re-analysis of the deposited data

How the results depend on the processing

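The 7 genes tested in the input kept their direction in every alternative in which they were fitted. Directions reversed only for Cnn1 in the m6A-RIP, where leaving out 1 library gave between -1.65 and 0.70 per gene and between -1.60 and 0.76 per row, the positive values without control library 1. The number of genes called in the input was 3039 with DESeq2 in place of 6432, all but 2 of them called in both. Leaving out 1 library gave between 5400 and 5805. Relative to input, 567 genes were called, and leaving out 1 library gave between 299 and 619. When libraries were scaled by total counts alone, the median over m6A-RIP rows was -0.15 and over genes -0.09, and the split moved to 2395 higher and 3766 lower genes (3060 and 3179 with TMM) and to 3842 higher and 7638 lower rows (5665 and 6005). The log2 fold changes of Acta2, Tagln and Myl9 kept their sign.

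Calls in the Igf2bp3-RIP depended most on the model. Of 24 peaks, 12 in each direction, the count became 263 with DESeq2, 0 with at least 100 counts in every library (a filter that Mcam does not pass), 1988 with the replicate block, and between 108 and 193 with 1 library left out, where Mcam had log2 fold changes between 2.26 and 2.90 and was past the threshold in 3 of 4 fits, the exception being that without control library 2. Of 13 genes (6 higher, 7 lower), it became 115 with DESeq2, 7 with total counts (5 higher, 2 lower), 374 with the replicate block, and between 39 and 73 with 1 library left out. The cause was not tested. Leaving out a library leaves a lone one, assumed to vary like the other group. The labels do not say that a replicate number marks a shared batch. Across 19465 peaks, the difference between replicates 2 and 1 correlated between control and Lin28a+ with r = 0.703, and only 2 pairs exist. Mcam, not past the threshold in the fit without the block, was past it with the replicate block and with DESeq2, by peak and by gene. For the input and the m6A-RIP, unlike the Igf2bp3-RIP, the replicate block could not be fitted, because their Lin28a+ columns carry no replicate number of their own. Requiring each peak to cover at least 50% of the other left 0 shared peaks in place of 1. Depth limits Cnn1, Rgs5 and Pdgfrb, which had at most 21.5 estimated counts in any input library.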

Other observations

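Among the myogenic markers, Megf10, an adhesion receptor of muscle stem cells, was lower in the input of Lin28a+ MuSCs, with a log2 fold change of -2.21 (SE 0.029), and had one of 0.71 (SE 0.23) in the m6A-RIP with rows summed. It had 6 Lin28a-RIP and 5 Igf2bp3-RIP peaks. The other markers of this list named in the text, Myog, Cdh15 and Vcam1, had m6A-RIP log2 fold changes of 1.96, 0.83 and -1.95, of the same sign as in the input.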
